A study of Mus musculus with 15 samples.

Results

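The enzymes that oxidise foreign compounds and aldehydes and couple them to soluble groups were followed through tumors and normal tissue of the mouse stomach. Members were taken by gene symbol: the cytochrome P450s (Cyp), glutathione transferases (Gst), flavin monooxygenases (Fmo), aldehyde dehydrogenases (Aldh) and UDP-glucuronosyltransferases (Ugt), with pseudogenes left out, and the methyltransferase Inmt. Such symbols were held by 167 of the 36144 genes counted, and 90 of these were selected on their counts, reaching 10 counts in at least 3 of the 15 libraries, tumor or normal. They were 37 Cyp, 21 Gst, 4 Fmo, 19 Aldh and 8 Ugt genes and Inmt. The 77 symbols below that minimum included 21 with 0 counts in every library. Just inside the minimum were Cyp26a1 (52 counts at the highest), Cyp4f40 (45) and Fmo4 (18), and just outside it Cyp2e1 (22) and Cyp4a32 (19). Inmt belongs to no family of the rule and had been added after it ranked among the largest fallers in these libraries, so it is described without a test. The families were themselves chosen by earlier measured fold changes of all tumors over normal in these libraries, so the fold changes below describe them.

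Phase I enzymes insert or unmask a reactive group: P450s oxidise with electrons from a reductase in the endoplasmic reticulum or from ferredoxin in mitochondria, flavin monooxygenases oxidise nitrogen and sulfur atoms, and aldehyde dehydrogenases turn aldehydes into acids. Phase II enzymes then attach glutathione or glucuronic acid, which makes the product easier to excrete. Several members have tasks in normal metabolism instead, in the synthesis and breakdown of retinoic acid, in sterol and bile acid synthesis, or in amino acid and folate turnover. In the stomach some of these enzymes sit in the epithelium that meets swallowed alcohol, aldehydes and drugs.

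RNA was sequenced in bulk from 5 groups of 3 libraries: tumors of the antrum, of the greater curvature and of the lesser curvature of the cardia, and of the corpus, and normal gastric tissue. Every group, the normals included, was C57BL/6 with the Pou2f3-CreERT driver, the conditional deletions Rb1fl/fl and Trp53fl/fl and the inducible LSL-MycT58A, received tamoxifen at 50 mg/kg by intraperitoneal injection for 1 day, and is labelled with a time of 5 weeks and an age of 7 to 8 weeks. The Cre is driven by Pou2f3, the transcription factor of tuft cells (chemosensory cells of the gut epithelium), and the region of the stomach that the normals came from is not stated. Replicates are labelled biological, but nothing says that they came from separate animals, so p-values measure the spread between these samples, which may in part be technical.

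Libraries held 7957165 to 21564972 counts. Levels are given as CPM, read counts scaled to library size, unless TPM, which also corrects for transcript length, is named. Some libraries stood apart. The 6 pan-epithelial markers summed to 160.1 CPM in lesser curvature 1 and 219.5 CPM in antrum 1, against 1708 to 10628 CPM in the other 10 tumors and 3799 to 11851 CPM in the normals. In greater curvature 2 and corpus 1 the chief cell list stood at 44952 and 81858 CPM, within or near the normals (62309 to 137647 CPM), while the other tumors held 7.42 to 20450.3 CPM. Smooth muscle markers fell in 11 of 11, at 194 to 1194 CPM in tumors against 4643 to 6542 CPM in normals. The squamous forestomach list was at 6199 CPM in normal 2 but at 13.0 and 5.81 CPM in the other normals, and at 419 to 2144 CPM in the lesser curvature tumors. Gland markers also differed among the normals. The antral gland list was at 0.735, 118.5 and 757.0 CPM in normals 1 to 3, and at 0.139 to 169.7 CPM in tumors. Muc6, of the pit and neck mucous cell list, was at 51297, 2238 and 2718 CPM in normals 1 to 3. The part of stomach region in calls that rest on a single normal was not tested. In bulk tissue fewer cells of a type and less RNA per cell cannot be told apart.

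All 12 tumors were first set against the 3 normals. The enzymes were mostly lower in the tumors. Fmo2, Cyp2b10, Aldh6a1, Gstm2 and Cyp27a1 fell by 4.22, 5.01, 2.30, 2.35 and 2.10 on the log2 scale, while the sterol enzyme Cyp7b1, the proline-synthesis enzyme Aldh18a1 and the steroid enzyme Cyp21a1 rose. Of the 88 family members tested (all but Fmo4, which was too low for the fit), 27 (30.7%) fell and 3 (3.41%) rose at an adjusted p under 0.05 by edgeR's quasi-likelihood test with Benjamini-Hochberg adjustment over all genes, the test behind every adjusted p here unless another is named. Among all 16224 genes tested 15.7% were called lower and 16.2% higher. The median log2 fold change was -1.33 over the members and -0.04 over all genes tested, and 74 of the 88 members lay below 0. All 88 reached the count minimum among the tumors alone. In 14 members (15.9%) all 12 tumors lay below all 3 normals, against 6.65% of all genes tested, and in 1 (1.14%), Cyp7b1, all lay above, against 9.58% of all genes. The families had been chosen on this same contrast, so their shares and p-values here are a description and no independent support.

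The calls leaned on single libraries. Of the 27 lower calls 7 held without each of the 15 libraries in turn: Aldh4a1, Aldh6a1, Cyp27a1, Cyp2b10, Cyp4f13, Fmo2 and Gstm2. Each of the 3 higher calls was lost without at least 1 library, and the number of lower calls was 17 without normal 1, 14 without normal 2 and 10 without normal 3. On the authors' TPM scale, where the median gene lies 0.43 higher in tumors on the log2 scale, limma called 12 members lower and 6 higher. It tested 82 members, those above its TPM minimum. The share of all genes called is not given for limma or for the fits without 1 library. Of the 7 held calls 6 also passed under every other setting tried, and Aldh4a1 did not with limma (adjusted p = 0.0579). Other lower calls that did not pass with limma included Fmo1 (adjusted p = 0.173), Cyp2d22 (0.234) and Gstm1 (0.0837).

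**Figure D1:**
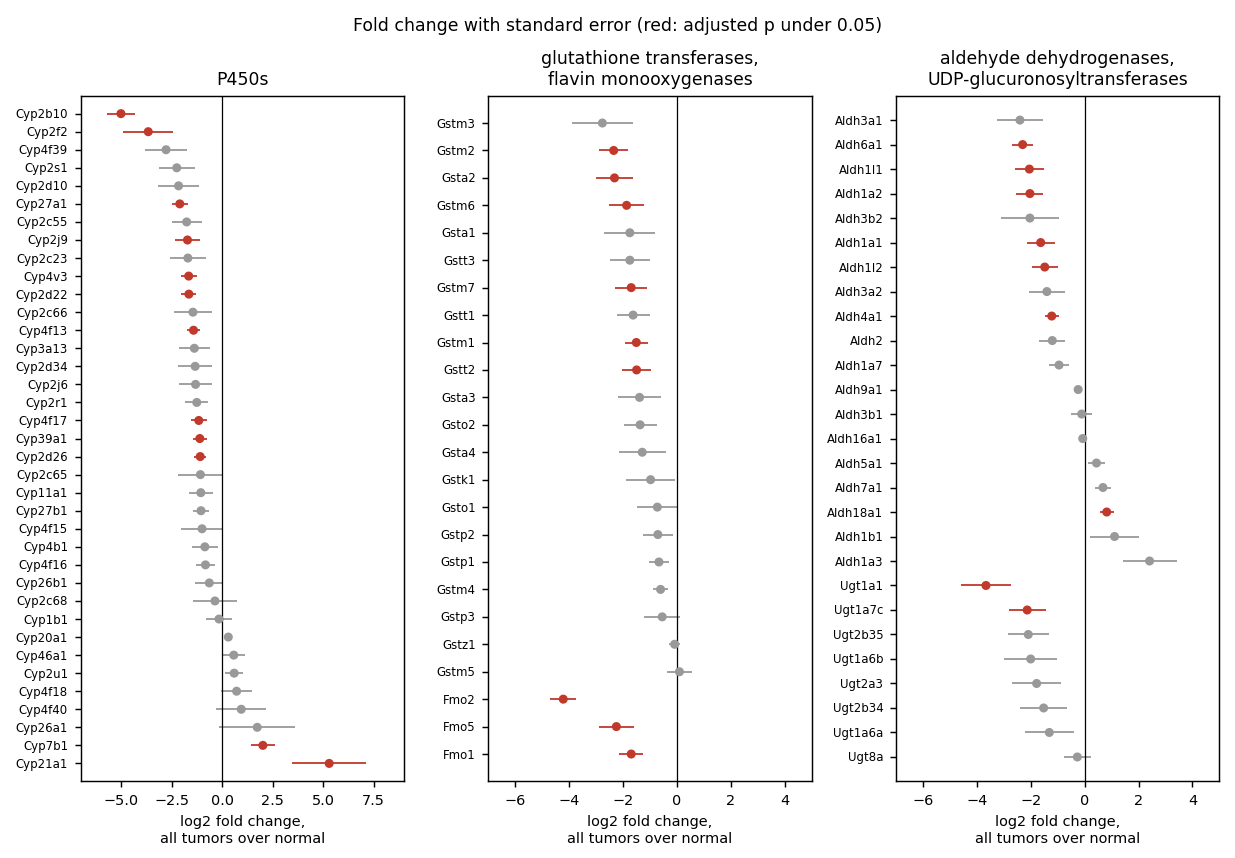
Log2 fold change of all tumors over normal for the 88 family members tested (x axis), with bars of 1 standard error; red points passed an adjusted p under 0.05 by edgeR. Most points lie left of 0, and the 3 red points right of 0 are Cyp7b1, Cyp21a1 and Aldh18a1.

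Among the P450s 10 of 37 fell and 2 rose, with a median log2 fold change of -1.11. Cyp2b10 (chromosome 7, 25897620 to 25926624, GRCm38), the P450 that phenobarbital induces in mouse liver through the receptor Nr1i3, had 0.246 at the lowest, 1.1 at the median and 3.08 at the highest CPM in the 12 tumors, against 40.0, 2.88 and 77.4 CPM in normals 1 to 3. All tumors were low, 11 of 12 below every normal, and normal 2 was the low one of the normals (log2 fold change -5.01, SE 0.69, adjusted p = 0.00143). Nr1i3 itself had 2 counts over all libraries and was too low for the fit. Cyp27a1, the mitochondrial sterol hydroxylase that opens the side chain of bile acid precursors, had 1.04 at the lowest, 2.52 at the median and 4.59 at the highest CPM in tumors, against 5.88, 16.1 and 11.4 CPM in normals. The groups did not overlap (log2 fold change -2.1, SE 0.4, adjusted p = 0.0044). Both calls held without each library in turn.

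Cyp4v3, a fatty acid hydroxylase, had 2.4 at the lowest, 5.14 at the median and 13 at the highest CPM in tumors and 20.7, 12.8 and 22.9 CPM in normals (log2 fold change -1.66, SE 0.4, adjusted p = 0.0108), and Cyp2d22 had 1.57 at the lowest, 3.38 at the median and 6.77 at the highest CPM in tumors and 10.6, 4.71 and 18.7 CPM in normals (log2 fold change -1.65, SE 0.37, adjusted p = 0.00806). In both, 10 of 12 tumors lay below every normal, and both calls were lost without normal 3, at adjusted p = 0.0573 for Cyp4v3 and 0.0888 for Cyp2d22. Cyp2j9, of a subfamily that oxidises arachidonic acid, had 0.0615 at the lowest, 0.703 at the median and 2.45 at the highest CPM in tumors and 2.35, 3.23 and 4.2 CPM in normals (log2 fold change -1.72, adjusted p = 0.0492); its call did not survive leaving out any 1 of 12 libraries, at most adjusted p = 0.177 without normal 3. Cyp4f13 (-1.42, adjusted p = 0.00815), Cyp4f17 (-1.16, adjusted p = 0.0478), Cyp39a1 (-1.11, adjusted p = 0.0354), an oxysterol hydroxylase, and Cyp2d26 (-1.09, adjusted p = 0.0194) fell as well on the log2 scale. Of these 4, Cyp4f13 held its call without each library, while Cyp2d26 lost it without normal 1 (adjusted p = 0.0753) or normal 2 (adjusted p = 0.0679). The calls of Cyp4f17 and Cyp39a1 were lost without any 1 of 9 and 7 libraries, at most adjusted p = 0.261 and 0.17, each without normal 1.

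Cyp2f2, the P450 known for oxidising naphthalene in mouse airway cells, passed the test (log2 fold change -3.66, SE 1.24, adjusted p = 0.041) on 1 high normal. It had 0.0551 at the lowest, 0.735 at the median and 7.94 at the highest CPM in the tumors, against 0.0735, 52.3 and 0.0765 CPM in the normals. Without normal 2 its log2 fold change was 4.07 (adjusted p = 0.125), the opposite direction, and the call was lost without any 1 of 10 libraries. Cyp4f39, of the lipid hydroxylases of the skin barrier, and Aldh3b2 had the same outlying library. Cyp4f39 was at 0 to 7.94 CPM in tumors, against 0.661, 42.2 and 2.6 CPM in normals 1 to 3, and Aldh3b2 at 0.246 to 19.2 CPM in tumors, against 0.294, 87.1 and 8.72 CPM in normals; both were picked after their values were seen. Normal 2 is also the normal with squamous forestomach markers, of which Krt4 was at 0.294, 1231 and 0.153 CPM and Krt13 at 0.0735, 1864 and 0.153 CPM in normals 1 to 3, and 7 of 10 of them fell. Their part in these results was not tested.

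The sterol enzyme Cyp7b1 (chromosome 3, 18071950 to 18243338), an oxysterol hydroxylase of the alternative bile acid pathway that also clears signalling oxysterols, had 2.1 at the lowest, 6.89 at the median and 21.9 at the highest CPM in tumors and 1.98, 1.48 and 2.06 CPM in normals (log2 fold change 2.01, SE 0.6, adjusted p = 0.0251). Every tumor lay above every normal, with greater curvature 3 and lesser curvature 1 the highest, yet the call ended on leaving out normal 1 (adjusted p = 0.0723), normal 2 (adjusted p = 0.0958) or normal 3 (adjusted p = 0.0784). Cyp21a1, the steroid hydroxylase of the adrenal cortex, had 345 counts over the 12 tumors and 1 count over the 3 normals. That is a ratio of depth-scaled counts of 64.6, with an exact 95% interval from 11.5 up to 2558 that covers counting error only. Antrum 1 and lesser curvature 1 were at 0, and greater curvature 2 was the highest at 6.62 CPM. The fitted log2 fold change was 5.29 (SE 1.84, adjusted p = 0.0453), a call lost without any 1 of 10 libraries, at most adjusted p = 0.138 without normal 2. The pseudogene Cyp21a2-ps shares 33.2% of the 31-base stretches of Cyp21a1, so its reads may have been split.

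By TPM, Cyp2s1, Cyp2c65 and Cyp2j6 were the most abundant P450s, and none passed the test. Cyp2s1, a P450 of surface epithelia that dioxin induces, had 3.64 at the lowest, 163 at the median and 732 at the highest CPM in tumors and 506, 842 and 1068 CPM in normals (log2 fold change -2.25, SE 0.9, adjusted p = 0.0718), with 11 of 12 tumors below every normal. Its adjusted p was 0.0278 without greater curvature 2 and 0.0433 without lesser curvature 2. Cyp2c65, a P450 of the gut, ranged from 0.59 to 435 CPM in tumors against 101, 367 and 258 CPM in normals, so corpus 1 exceeded all 3 normals (log2 fold change -1.08, adjusted p = 0.458). Cyp2j6 ranged from 2.06 to 179 CPM against 108, 156 and 158 CPM in normals, the log2 fold change being -1.32 (adjusted p = 0.219). In each of the 3, lesser curvature 1 and antrum 1 were the lowest tumors.

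**Figure D2:**
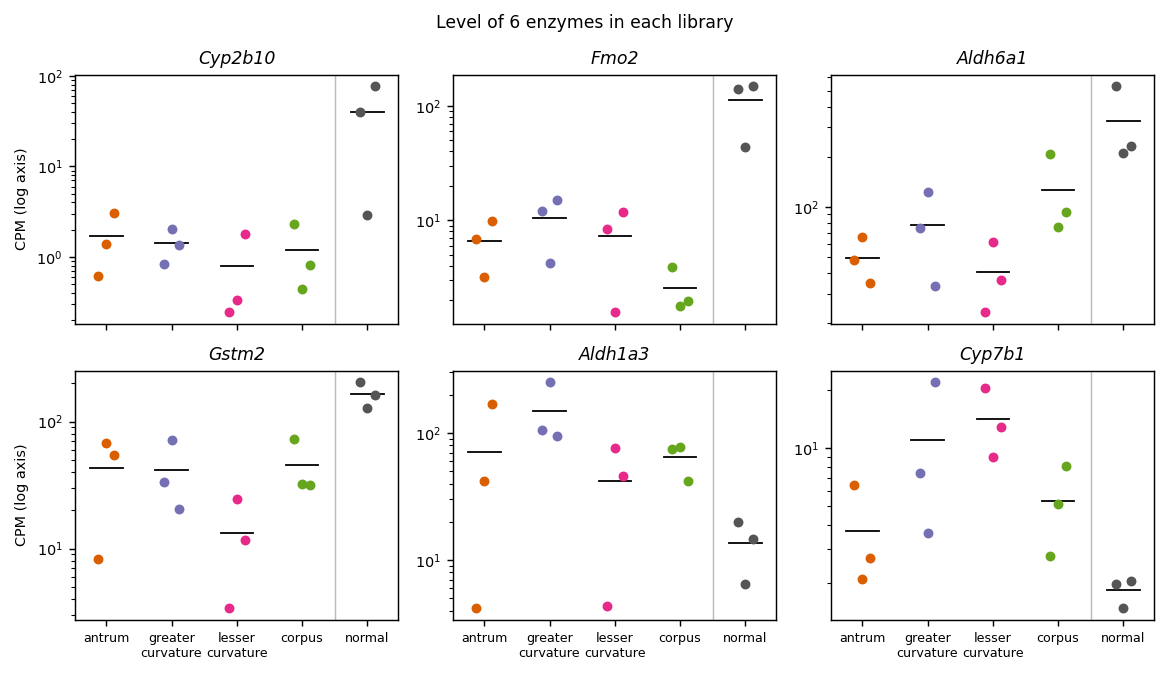
CPM on log axes for 6 enzymes in each library, grouped as antrum, greater curvature, lesser curvature and corpus tumors and, at the right, normals; points are libraries and lines group means (n = 3). The tumors of Fmo2, Aldh6a1 and Gstm2 lie below all 3 normals, 11 of 12 tumors do so for Cyp2b10, all 12 lie above the normals for Cyp7b1, and 10 of 12 for Aldh1a3.

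All 3 flavin monooxygenases tested fell. Fmo2 (chromosome 1, 162874317 to 162898726), the form of the lung in most mammals, had 1.57 at the lowest, 5.53 at the median and 14.9 at the highest CPM in tumors, against 142, 44.1 and 149.8 CPM in normals. Tumors and normals did not overlap, and the normals themselves differed, with normal 2 low (log2 fold change -4.22, SE 0.48, adjusted p = 0.000651); the call held without each library. Fmo2 stood among the largest fallers in an earlier reading of these libraries, so its rank is no independent support. Fmo5, whose oxidations turn ketones into esters, had 1.42 at the lowest, 10.1 at the median and 33.8 at the highest CPM in tumors and 31.7, 41.3 and 69.6 CPM in normals. Corpus 1 reached into the normals (log2 fold change -2.25, SE 0.64, adjusted p = 0.0209), and the call ended on leaving out normal 2 (adjusted p = 0.0535) or normal 3 (adjusted p = 0.11). Fmo1, a drug-oxidising form of kidney and mouse liver, had 1.19 at the lowest, 2.25 at the median and 8.84 at the highest CPM in tumors and 6.69, 5.58 and 13.9 CPM in normals (log2 fold change -1.7, SE 0.44, adjusted p = 0.0142). Lesser curvature 3 was its highest tumor, and leaving out normal 3 ended the call (adjusted p = 0.125). Fmo4 had 0.0615 to 0.712 CPM in tumors and 0.808, 0.698 and 1.38 CPM in normals. Smooth muscle markers fell as well (11 of 11; 194 to 1194 CPM in tumors, 4643 to 6542 CPM in normals), and their part in the fall of these genes was not tested.

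Inmt, which methylates tryptamine and thioethers, had 0 at the lowest, 0.186 at the median and 0.478 at the highest CPM in tumors, against 5.73, 2.97 and 22 CPM in normals. Antrum 1 and lesser curvature 2 had 0 counts. It had 42 counts over the 12 tumors and 400 over the 3 normals. It reached the count minimum in 1 tumor and 3 normal libraries, so it passed that minimum through the normals.

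Glutathione transferases fell in 6 of 21, with a median log2 fold change of -1.39. By class the mu genes fell in 4 of 7, the alpha genes in 1 of 4 and the theta genes in 1 of 3. Gstm2 (chromosome 3, 107981702 to 107986453), a mu form known from muscle, had 3.39 at the lowest, 32.1 at the median and 73 at the highest CPM in tumors, against 205, 127 and 161 CPM in normals. Every tumor lay below every normal (log2 fold change -2.35, SE 0.53, adjusted p = 0.00874), and the call held without each library. Gstm1 was the most abundant mu transcript and had 14.3 at the lowest, 118 at the median and 259 at the highest CPM in tumors and 262, 333 and 430.1 CPM in normals (log2 fold change -1.51, SE 0.42, adjusted p = 0.0191), again without overlap, but its call did not survive leaving out normal 2 (adjusted p = 0.058) or normal 3 (adjusted p = 0.0939). Gstm6 and Gstm7 fell by 1.87 and 1.7 on the log2 scale, each with adjusted p = 0.0469, and these calls were lost without any 1 of 10 and 12 libraries, at most adjusted p = 0.142 without normal 2 and 0.212 without normal 1. Gstm5 stood apart from its neighbours in the cluster, at 20.0 at the lowest, 51.3 at the median and 100.4 at the highest CPM in tumors and 64.6, 31.8 and 41.1 CPM in normals (log2 fold change 0.09, adjusted p = 0.882); it was picked after its values were seen.

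In the alpha class, whose members reduce peroxides and conjugate the reactive aldehydes of lipid peroxidation, Gsta2 had 0.492 at the lowest, 7.52 at the median and 15.7 at the highest CPM in tumors and 29, 38.6 and 36.5 CPM in normals (log2 fold change -2.32, SE 0.67, adjusted p = 0.0222). The groups did not overlap, and the call ended on leaving out normal 1 (adjusted p = 0.0522), normal 2 (adjusted p = 0.0738) or normal 3 (adjusted p = 0.0724). Gsta1 had 5.26 at the lowest, 497 at the median and 1212 at the highest CPM in tumors and 667, 1717 and 2351 CPM in normals (log2 fold change -1.75, adjusted p = 0.165). Its transcripts share 92.9% of their 31-base stretches with other genes (80.3% with Gm3776), and Gsta2 shares 60.7% with other genes, mostly Gsta1, so their counts may be split. Gsta4, the main enzyme for hydroxynonenal, had 15.2 at the lowest, 643 at the median and 1619.6 at the highest CPM in tumors and 660.5, 1973 and 1847 CPM in normals (log2 fold change -1.29, adjusted p = 0.257). Gsto1, an omega form that reduces rather than conjugates, was the most abundant member by TPM and had 88.5 at the lowest, 906 at the median and 2575 at the highest CPM in tumors, against 866, 1983 and 2253 CPM in normals. Corpus 1 and greater curvature 2 exceeded all normals (log2 fold change -0.73, adjusted p = 0.45). Gstt2, a theta form, fell by 1.5 on the log2 scale (adjusted p = 0.0487), a call lost without any 1 of 11 libraries, at most adjusted p = 0.174 without normal 3.

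The make-up of the glutathione transferase pool also varied among tumors. Summed over the 21 genes, TPM ran from 505 to 8381 in tumors, with a median of 4720.0, and was 3788, 8082 and 9622 in normals 1 to 3. The alpha share of that sum was 9.25% to 58.1% in tumors and 48.2% to 61.3% in normals. In antrum 1 the mu class held 40.9% and the alpha class 9.48%. Lesser curvature 1 held 25.1% mu and 9.25% alpha, and greater curvature 1 held 26.6% mu and 30.8% alpha. The mu share in the normals was 6.33% to 15.2%. The pi class held 25.3%, 23.9% and 13.7% in these tumors in that order, and 5.03% to 7.59% in the normals. Of the mu genes, Gstm5 alone held 18.4%, 17.5% and 4.96% of the whole sum in the same order, and 0.483% to 2.1% in the normals. The pan-epithelial sums of these tumors were 219.5, 160.1 and 2405 CPM in the same order. The part of cell make-up in these shares was not tested. The omega share was 19.6% to 39.1% in tumors and 23.1% to 24.6% in normals. Gstz1, which isomerises maleylacetoacetate in tyrosine breakdown, was at 22 to 33.8 CPM in tumors, against 42.2, 21.9 and 26.1 CPM in normals.

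**Figure D3:**
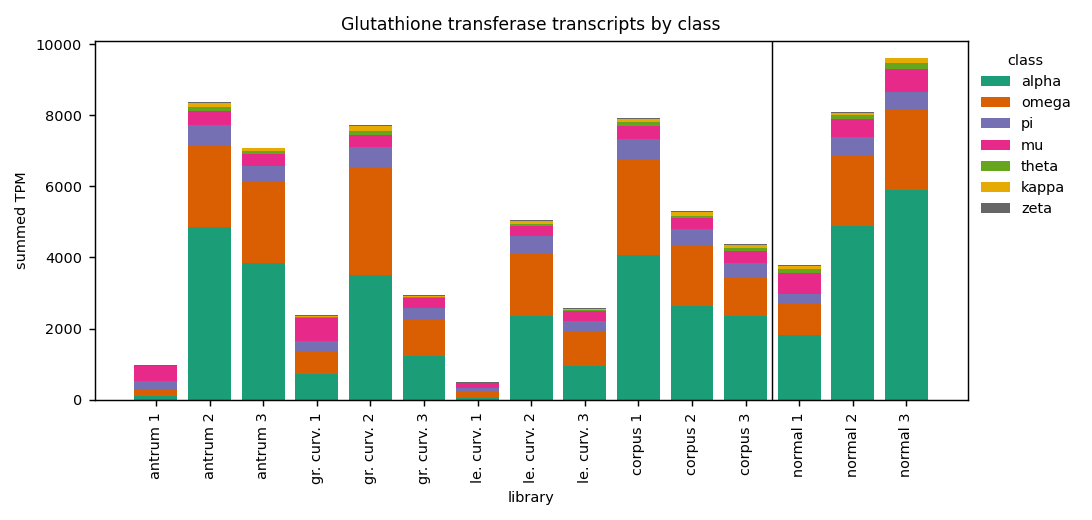
Summed TPM of the 21 glutathione transferases in each library, stacked by class; the 12 tumors stand left of the line and the 3 normals right of it. Antrum 1 and lesser curvature 1 have the lowest sums and little alpha-class transcript, while antrum 2, greater curvature 2 and corpus 1 reach 8381, 7722 and 7929 TPM.

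Aldehyde dehydrogenases fell in 6 of 19 and rose in 1, with a median log2 fold change of -1.20. The enzymes of amino acid turnover went different ways. Aldh6a1 (chromosome 12, 84430717 to 84451004), the methylmalonate semialdehyde dehydrogenase of valine and pyrimidine breakdown, had 23.2 at the lowest, 63.7 at the median and 208 at the highest CPM in tumors, against 534, 211 and 233 CPM in normals. No tumor reached a normal, and the highest tumor, corpus 1 at 208 CPM, lay next to normal 2 (log2 fold change -2.3, SE 0.39, adjusted p = 0.00297). Aldh4a1, which finishes proline breakdown to glutamate, had 5.75 at the lowest, 14.1 at the median and 20.2 at the highest CPM in tumors and 39.7, 29.1 and 24.5 CPM in normals (log2 fold change -1.22, SE 0.26, adjusted p = 0.00727), without overlap. Both calls held without each library, but Aldh4a1 did not pass with limma on TPM (adjusted p = 0.0579). Aldh18a1 (chromosome 19, 40550257 to 40588463), which starts proline synthesis from glutamate, had 69.7 at the lowest, 94.5 at the median and 152 at the highest CPM in tumors, against 76.5, 39.2 and 48.5 CPM in normals. It rose (log2 fold change 0.82, SE 0.26, adjusted p = 0.0333), with 10 of 12 tumors above every normal, antrum 2 only just (76.5 CPM, as in normal 1 after rounding), and the call ended on leaving out any 1 of 5 libraries, at most adjusted p = 0.152 without normal 2. Aldh7a1 of lysine breakdown had 31.5 to 83.8 CPM in tumors and 49, 33.4 and 27.4 CPM in normals, the log2 fold change being 0.68 (adjusted p = 0.0932); it was picked after its values were seen.

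The folate enzymes Aldh1l1 and Aldh1l2, which release carbon dioxide from formyltetrahydrofolate in the cytosol and the mitochondria, both fell. Aldh1l1 had 1.38 at the lowest, 23.5 at the median and 62.5 at the highest CPM in tumors and 128, 69.1 and 85.8 CPM in normals (log2 fold change -2.05, SE 0.55, adjusted p = 0.0166), without overlap, and lost its call without normal 1 (adjusted p = 0.0765) or normal 3 (adjusted p = 0.05). Aldh1l2 had 3.31 at the lowest, 10.6 at the median and 20.2 at the highest CPM in tumors and 51.9, 25.9 and 12.3 CPM in normals (log2 fold change -1.48, adjusted p = 0.0351), a call lost without any 1 of 7 libraries, at most adjusted p = 0.267 without normal 1. Aldh3a1, the class 3 enzyme that is abundant in stomach and cornea, had 3.19 at the lowest, 193 at the median and 482 at the highest CPM in tumors and 777, 359 and 1849 CPM in normals, with 11 of 12 tumors below every normal and a log2 fold change of -2.4 (adjusted p = 0.0513). That adjusted p lay between 0.0371 and 0.0478 without any 1 of 5 tumor libraries. Aldh2, the mitochondrial enzyme that clears acetaldehyde, had 10.9 at the lowest, 102 at the median and 175 at the highest CPM in tumors and 137, 242 and 278 CPM in normals (log2 fold change -1.2, adjusted p = 0.0755), and passed the test without greater curvature 2 (adjusted p = 0.0444) or lesser curvature 2 (adjusted p = 0.0309). Aldh9a1 of carnitine synthesis was at 38.1 to 79.7 CPM in tumors and 56.4, 72.4 and 64.7 CPM in normals, and Aldh16a1 at 40.8 to 54.8 CPM and 58.6, 40.6 and 50.9 CPM. With Gstz1 and Cyp20a1, these were the 4 members within 2-fold of the normal mean in every tumor, which is how they were picked.

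Of the 4 Aldh1a members, a group that includes the enzymes that make retinoic acid, Aldh1a1 and Aldh1a2 fell. Aldh1a1 had 16.6 at the lowest, 104 at the median and 269 at the highest CPM in tumors and 249.5, 356 and 322 CPM in normals (log2 fold change -1.63, SE 0.52, adjusted p = 0.0339), and Aldh1a2 1.32 at the lowest, 3.17 at the median and 10.9 at the highest CPM in tumors and 4.92, 9.51 and 30.0 CPM in normals (log2 fold change -2.03, SE 0.5, adjusted p = 0.0121). The call of Aldh1a1 was lost without any 1 of 7 libraries, at most adjusted p = 0.115 without normal 2, and that of Aldh1a2 without normal 3 (adjusted p = 0.206). Aldh1a3, another enzyme of this step, had 4.18 at the lowest, 75.3 at the median and 251 at the highest CPM in tumors, against 20.1, 6.46 and 14.7 CPM in normals. In 10 of 12 tumors it lay above every normal, while antrum 1 and lesser curvature 1 lay below all of them. Its log2 fold change of 2.41 (SE 1.0) did not pass (adjusted p = 0.0796), but passed without antrum 1 (adjusted p = 0.0334) and with limma on TPM (adjusted p = 0.0312). That scale lifts the median gene by 0.43 in tumors, and there Aldh1a1 (limma adjusted p = 0.0568) and Aldh1a2 (0.0955) did not pass. For Aldh1a7 the log2 fold change was -0.95 (adjusted p = 0.071). Over the 4 genes the summed TPM was 63.3 to 249.7 in tumors and 143, 218 and 223 in normals.

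Of the P450s that break retinoic acid down, Cyp26b1 had 0.632 at the lowest, 2.65 at the median and 19.8 at the highest CPM in tumors and 1.62, 10.9 and 4.13 CPM in normals (log2 fold change -0.64, adjusted p = 0.475, and a log2 fold change of 0.31 without normal 2). Corpus tumors had 0.632, 1.07 and 0.919 CPM and lesser curvature tumors 3.39, 5.15 and 19.8 CPM. Cyp26a1 had 97 counts over the 12 tumors, most of them in antrum 3 and greater curvature 2, and 3 over the normals (ratio of depth-scaled counts 6.05, exact 95% interval 2.01 to 29.9, counting error only; log2 fold change 1.73, adjusted p = 0.477). Cyp26c1 had 2 counts in all 15 libraries. Cyp1b1, which oxidises steroids, aromatic compounds and retinol, had 5.59 at the lowest, 15.4 at the median and 62.5 at the highest CPM in tumors and 27.4, 19.7 and 30.4 CPM in normals (log2 fold change -0.16, adjusted p = 0.849).

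Glucuronosyltransferases fell in 2 of 8, with a median log2 fold change of -1.89 and all 8 below 0. Ugt1a1, the enzyme that conjugates bilirubin, had 0 at the lowest, 0.48 at the median and 3.13 at the highest CPM in tumors and 1.4, 12.6 and 15.7 CPM in normals (log2 fold change -3.66, SE 0.92, adjusted p = 0.0127), with normal 1 among the tumors. Ugt1a7c had 1.18 at the lowest, 17.1 at the median and 50.4 at the highest CPM in tumors and 49.2, 46 and 117 CPM in normals (log2 fold change -2.13, SE 0.69, adjusted p = 0.0346). The call of Ugt1a1 was lost without normal 3 (adjusted p = 0.0673) and that of Ugt1a7c without any 1 of 8 libraries, at most adjusted p = 0.197 without normal 3. The Ugt1a genes join their own first exon to shared later exons, and 53.0% to 84.2% of the 31-base stretches of the 4 members occur in another gene, so how counts were divided among them is uncertain. Ugt2b34 had 2.7 at the lowest, 140.0 at the median and 409 at the highest CPM in tumors and 237, 502 and 406 CPM in normals (log2 fold change -1.52, adjusted p = 0.188), and Ugt1a6a, a form for phenols, had 1.28 at the lowest, 52.7 at the median and 154 at the highest CPM in tumors and 52.6, 182 and 143 CPM in normals (log2 fold change -1.31, adjusted p = 0.268). In all 4 genes antrum 1 and lesser curvature 1 were the lowest tumors.

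The loss was graded over tumor libraries. The median member lay -2.73 from the normal mean on the log2 CPM scale in lesser curvature 1 and -2.42 in antrum 1. Greater curvature 1 and 3 and lesser curvature 3 lay at -1.65, -1.92 and -1.81. Greater curvature 2 and corpus 1 were nearest to normal, at -0.32 and -0.21, and the other 5 tumors lay between -1.12 and -0.56. Single normals lay between -0.12 and 0.18, and the median over all genes was within 0.07 of 0 in every library. Of the 88 members 68 (77.3%) were over 2-fold below the normal mean in antrum 1 and 15 (17.0%) in corpus 1, against 28.6% and 9.85% of all genes in those libraries. Lesser curvature 1 was the lowest tumor for 41 members and antrum 1 for 22, while corpus 1 was the highest for 36 and greater curvature 2 for 17. Over the same libraries the pan-epithelial sums were 160.1 CPM in lesser curvature 1, 219.5 in antrum 1, 8782 in greater curvature 2 and 10628 in corpus 1, and the pit and neck mucous cell sums were 135, 1177, 66857 and 89631 CPM. The part of epithelial content in the enzyme levels was not tested. Without greater curvature 2 and corpus 1 together, 37 members were called lower. These 2 tumors lay nearest to normal for the same members, so this count is no separate support, and the share of all genes under that setting is not given.

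**Figure D4:**
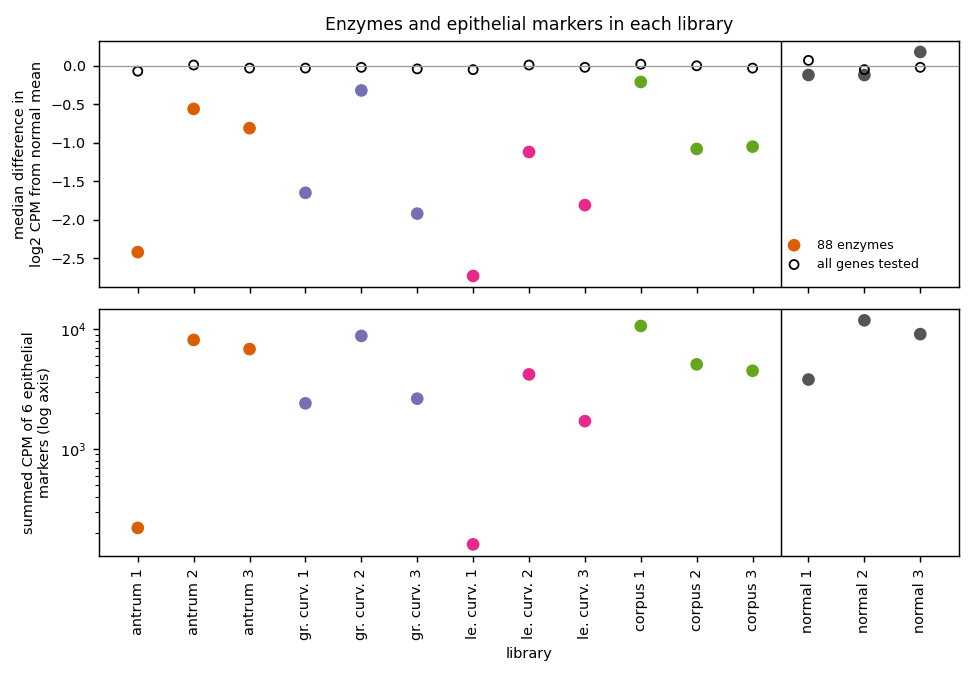
Top: median difference in log2 CPM from the normal mean over the 88 enzymes (filled) and over all genes tested (open) in each library. Bottom: summed CPM of the 6 pan-epithelial markers on a log axis; tumors stand left of the line and normals right of it, and lesser curvature 1 and antrum 1 are lowest in both panels.

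The pattern was not shared by every member. In 74 members at least 1 tumor lay over 2-fold below the normal mean, and 6 did so in all 12 tumors: Cyp27a1, Cyp2b10, Fmo2, Gsta2, Gstm2 and Ugt1a1. In 14 members some tumors lay over 2-fold below and others over 2-fold above, among them Aldh1a3 and Cyp26b1. The 14 members that were never over 2-fold below included Cyp7b1, Aldh18a1, Aldh7a1, Aldh5a1, Gstz1 and Cyp20a1. These counts take the extremes of 12 tumors, and the same counts over all genes are not given. In single tumors 8.89% to 28.6% of all genes lay over 2-fold below, and in single normals 4.55% to 14.8% of the members did. The counts are thus not shown to be particular to these enzymes. In greater curvature 2 and corpus 1, the tumors nearest to normal, levels were 4.23 and 3.87 CPM for Fmo2 and 2.04 and 2.29 CPM for Cyp2b10.

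**Figure D5:**
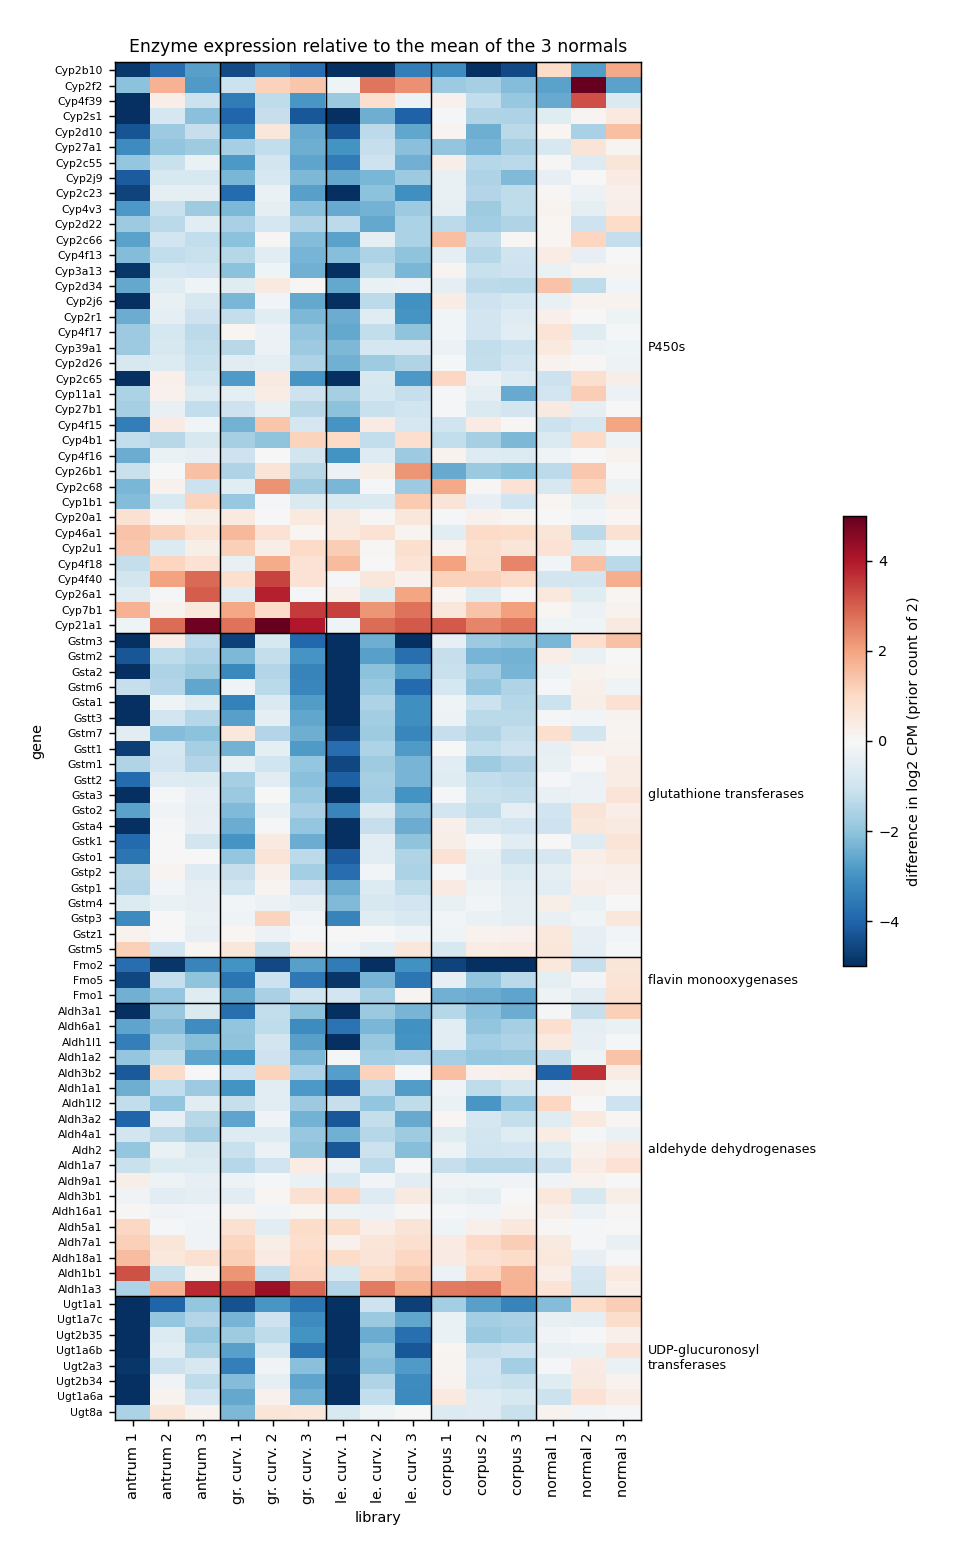
Difference in log2 CPM (prior count of 2) of the 88 family members from the mean of the 3 normals, 1 row per gene ordered by fold change within its family and 1 column per library, tumors left of normals; blue is lower and red higher. The columns of antrum 1 and lesser curvature 1 are the bluest, those of greater curvature 2 and corpus 1 the palest among tumors.

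Each site was then set against the same 3 normals, which the 4 comparisons therefore share. In antrum tumors 6 of 88 members (6.82%) fell and 0 rose, against 5.08% of all genes called lower and 9.59% higher. In greater curvature tumors 3 (3.41%) fell and 1 (1.14%) rose, against 2.76% lower and 6.5% higher. In lesser curvature tumors 23 (26.1%) fell and 1 (1.14%) rose, against 15.3% lower and 18.2% higher. In corpus tumors 3 (3.41%) fell and 0 rose, against 1.19% lower and 2.35% higher. At an unadjusted p under 0.05 edgeR had 2 members higher and 20 lower in antrum tumors, and 3 higher and 14 lower in corpus tumors. At an adjusted p under 0.05 DESeq2 called 2 higher in antrum and 0 in corpus tumors, and limma 2 and 0. The shares of all genes beside these counts are not given. The median member log2 fold change was -1.20 in antrum, -1.10 in greater curvature, -1.97 in lesser curvature and -0.76 in corpus tumors. Leaving out single libraries moved the lower calls to between 1 and 8 in the antrum, 0 and 10 in the greater curvature, 10 and 37 in the lesser curvature and 0 and 3 in the corpus; the antrum count was 1 without antrum 1 or 3, 2 without normal 1 or 3 and 3 without normal 2. The greater curvature count was 10 without greater curvature 2 and 0 without greater curvature 1 or 3 or normal 1 or 3. The lesser curvature count was 36 without antrum 1, 37 without lesser curvature 2, 10 without lesser curvature 1 or 3, 13 without normal 1 and 11 without normal 3. The corpus count was 1 without antrum 2, greater curvature 1 or any lesser curvature tumor, and 0 without corpus 2 or 3 or normal 1 or 3. The replicate number was also fitted as a block over all groups at once. It paired only the antrum and the lesser curvature with normal, as read from correlations in these same data. The block fit therefore also put pairs on the greater curvature and the corpus, where the numbers did not pair. With it the antrum gave 6 lower and 1 higher, with Cyp4f13 lost (adjusted p = 0.0594) and Fmo1 (adjusted p = 0.0368) and Aldh18a1 (adjusted p = 0.038) gained. The lesser curvature gave 36 lower and 2 higher, with Cyp27b1 lost (adjusted p = 0.0511) and 15 members gained, among them Aldh18a1 as the riser (adjusted p = 0.0273). The share of all genes called is not given for the block fit or the fits without 1 library.

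Fmo2 and Cyp2b10 fell at all 4 sites. The 4 comparisons share the normals, and the share of all genes called lower at all 4 is not given, so this overlap is only a description. Fmo2 averaged 6.61 ± 3.3 CPM in antrum, 10.4 ± 5.55 in greater curvature, 7.27 ± 5.22 in lesser curvature and 2.54 ± 1.16 in corpus tumors, against 112 ± 58.9 CPM in normals (SD, n = 3 each). Its log2 fold changes by edgeR were -4.08 (adjusted p = 0.0132), -3.42 (adjusted p = 0.0245), -3.93 (adjusted p = 0.00626) and -5.47 (adjusted p = 0.0195) in that order. The antrum and lesser curvature calls held without each library, and the greater curvature and corpus calls were each lost without any 1 of 4, at most adjusted p = 0.0868 without greater curvature 3 and 0.139 without corpus 3. Cyp2b10 averaged 1.7 ± 1.26, 1.41 ± 0.602, 0.799 ± 0.881 and 1.18 ± 0.977 CPM at the same sites, against 40.1 ± 37.3 CPM in normals (SD, n = 3 each). Its log2 fold changes were -4.55 (adjusted p = 0.028), -4.81 (adjusted p = 0.0314), -5.59 (adjusted p = 0.00882) and -5.1 (adjusted p = 0.0434). Only the lesser curvature call held without each library. The others were lost without any 1 of 5, 4 and 10 libraries, at most adjusted p = 0.101 when antrum 1 was left out, 0.135 for greater curvature 3 and 0.185 for corpus 3.

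Aldh6a1 fell in antrum, greater curvature and lesser curvature tumors, by 2.72 (adjusted p = 0.018), 2.07 (adjusted p = 0.0461) and 3.02 (adjusted p = 0.00626) on the log2 scale. In corpus tumors its log2 fold change was -1.38 (adjusted p = 0.168). Its antrum call was lost without 3 libraries, at most adjusted p = 0.0677 without antrum 1, and its greater curvature call without 11, at most 0.177 without greater curvature 3. Cyp7b1 rose in greater curvature tumors (2.57, adjusted p = 0.0414) and lesser curvature tumors (2.93, adjusted p = 0.0115) on that scale. It had 7.39, 3.62 and 21.9 CPM and 20.5, 8.95 and 12.8 CPM there, against 1.98, 1.48 and 2.06 CPM in normals. The first call was lost without any 1 of 10 libraries, at most adjusted p = 0.196 without greater curvature 3, and the second held. Antrum tumors had 6.39, 2.1 and 2.7 CPM and corpus tumors 2.77, 5.1 and 8.06 CPM. Fmo1 fell in corpus tumors, with 1.42, 1.35 and 1.19 CPM against 6.69, 5.58 and 13.9 CPM in normals (-2.72, adjusted p = 0.0451), a call lost without any 1 of 11 libraries, at most adjusted p = 0.187 without corpus 3.

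Antrum tumors also had lower Cyp27a1 (-2.36, adjusted p = 0.0263), Aldh4a1 (-1.3, adjusted p = 0.0372) and Cyp4f13 (-1.47, adjusted p = 0.0472) on the log2 scale, calls lost without any 1 of 4, 9 and 12 libraries, at most adjusted p = 0.0945 without antrum 1, 0.11 without antrum 3 and 0.159 without antrum 1. Among the lesser curvature calls were 5 of the 7 mu-class genes, with Gstm2 at -3.64 (adjusted p = 0.0109) and Gstm1 at -2.52 (adjusted p = 0.0127), both held without each library. Ugt2b35 (-3.64, adjusted p = 0.0364) and Cyp4f17 (-2.0, adjusted p = 0.0235) fell there too on the log2 scale but lost the call without any 1 of 5 and 3 libraries, at most adjusted p = 0.11 without lesser curvature 3 and 0.0924 without lesser curvature 1. Cyp2d26 (-1.96, adjusted p = 0.0085) held without each library. Of the 23 lower calls in lesser curvature tumors, 8 held without each library.

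Whether sites differed from each other was tested directly. In the F test among the 4 sites 0 of 88 members passed, against 0.0% of all genes tested. At an unadjusted p under 0.05 there were 3 members (3.41%), Cyp26b1, Cyp7b1 and Aldh6a1, against 5.84% of all genes, and their edgeR adjusted p were 0.797, 0.829 and 0.851. DESeq2's likelihood ratio test called 0 members and limma on TPM called 0, with 9 and 1 at an unadjusted p under 0.05. The different numbers of calls per site are therefore not shown to be differences between sites.

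Many members lie side by side in gene clusters, and neighbours share sequence. In the mu cluster on chromosome 3 (107895821 to 108044894, GRCm38, as all positions here) 4 of 7 genes fell, with log2 fold changes from -2.77 to 0.09. Fmo1 and Fmo2 lie together on chromosome 1 (162793188 to 162898726 with Fmo4), and both fell. The 4 Ugt1a genes (chromosome 1, 88095062 to 88220002) ran from -3.66 to -1.31, the 3 theta genes (chromosome 10, 75774115 to 75837424) from -1.75 to -1.5, and the 6 Cyp4f genes (chromosome 17, 32452723 to 32947402) from -2.78 to 0.94. The 5 genes of the Aldh3b and Gstp cluster on chromosome 19 (3913491 to 4059569) ran from -2.03 to -0.11. Of the 90 members 9 share at least 50% of their 31-base stretches with another gene, so their counts are uncertain one by one. Cyp2b10 shares 19.4%, Gstm1 28.8% and Aldh4a1 31%.

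The 250 bases before the start of 3 members are shown because they are a riser and a pair of fallers of different families, on RefSeq's GRCm38.p6 starts, read 5′ to 3′ on the gene's strand. Capitals mark matches to CACGTG, the E-box that Myc and Max bind, and to GCGTG, the core of the dioxin response element of Ahr and Arnt, or its reverse complement CACGC. They lie at chr19:40588464-40588713, minus strand, for Aldh18a1, at chr7:25897408-25897657, plus strand, for Cyp2b10, and at chr3:107986421-107986670, minus strand, for Gstm2.
Aldh18a1: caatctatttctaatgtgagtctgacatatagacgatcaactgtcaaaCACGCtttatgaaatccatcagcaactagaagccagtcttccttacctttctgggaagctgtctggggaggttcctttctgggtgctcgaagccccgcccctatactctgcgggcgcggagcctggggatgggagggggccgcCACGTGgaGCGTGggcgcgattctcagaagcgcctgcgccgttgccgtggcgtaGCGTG
Cyp2b10: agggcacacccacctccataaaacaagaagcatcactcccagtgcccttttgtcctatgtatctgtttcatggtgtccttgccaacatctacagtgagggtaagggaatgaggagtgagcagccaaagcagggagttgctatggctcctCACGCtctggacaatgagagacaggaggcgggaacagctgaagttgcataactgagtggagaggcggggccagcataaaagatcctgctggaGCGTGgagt
Gstm2: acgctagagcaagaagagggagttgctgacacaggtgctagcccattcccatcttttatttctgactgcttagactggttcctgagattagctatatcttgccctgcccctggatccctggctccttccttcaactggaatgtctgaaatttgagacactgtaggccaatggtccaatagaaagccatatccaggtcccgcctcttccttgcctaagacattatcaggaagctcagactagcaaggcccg

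The Aldh18a1 window holds 1 CACGTG, 59 bases before the start, and 3 GCGTG matches; the Cyp2b10 window holds 2 GCGTG matches and the Gstm2 window no match. In the windows from 250 bases before to 50 after the start, both strands searched, CACGTG stood in 4 of 72 members with a RefSeq promoter (5.56%), Aldh18a1, Aldh3a2, Cyp2j6 and Cyp4v3, against 8.09% of all 27025 genes. GCGTG stood in 23 of 72 (31.9%), against 35.2%, and in 8 of the 21 matched members that fell (38.1%). TGACNNNGC, the core of the antioxidant response element of Nrf2, stood in 10 of 72 (13.9%), against 14.0%, and in 2 of 21 that fell (9.52%). CACGTG is searched apart from GCGTG, and the motifs may overlap. A match is a description and does not show binding.

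Genes that regulate or serve these enzymes were read from 10 lists, and their counts stand against 15.7% of all genes called lower and 16.2% higher. Of 12 tested xenobiotic receptors and partners 2 fell (median log2 fold change -0.71). Ppara, the fatty acid receptor that drives Cyp4 genes, had 0.541 to 4.03 CPM in tumors and 5.14, 8.46 and 4.82 CPM in normals (log2 fold change -2.19, SE 0.42, adjusted p = 0.00481), while Tiparp, a target of the dioxin receptor Ahr, fell by 0.65 on the log2 scale (adjusted p = 0.0497, lost without any 1 of 12 libraries, at most adjusted p = 0.312 without normal 2). The bile acid receptor Nr1h4 (log2 fold change -1.48, adjusted p = 0.0748) and the Ahr partner Arnt (-0.39, adjusted p = 0.0911) did not pass. Of 14 Nrf2 targets and regulators 2 fell (median -0.88). Gclm, of glutathione synthesis, fell by 0.60 on the log2 scale (adjusted p = 0.0196), lost without normal 3 (adjusted p = 0.137). Hmox1, of heme breakdown, fell in the test (log2 fold change -1.14, adjusted p = 0.0455) on a high normal 2, at 17.4, 95.6 and 17.1 CPM in normals, and without it the log2 fold change was 0.19 (adjusted p = 0.533). Nqo1, a quinone reductase, had 2.9 at the lowest, 159 at the median and 450.5 at the highest CPM in tumors and 551, 569 and 1074 CPM in normals without passing (log2 fold change -2.03, adjusted p = 0.0779), and Gss was at -0.99 (adjusted p = 0.0845). Leaving out greater curvature 2 brought Nr1h4, Arnt, Nqo1 and Gss under the threshold, at adjusted p = 0.0379, 0.0224, 0.0498 and 0.0455, and leaving out lesser curvature 2 did so for Nr1h4 (adjusted p = 0.0403).

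Of 8 P450 electron donors 3 fell and 1 rose (median -0.37). Por, the reductase of the microsomal P450s, had 63.6 to 215 CPM in tumors and 425, 206 and 327 CPM in normals (log2 fold change -1.28, SE 0.3, adjusted p = 0.00972), a call lost without normal 1 (adjusted p = 0.0622). Cyb5a fell by 1.52 on the log2 scale (adjusted p = 0.0162), a call lost without normal 2 (adjusted p = 0.0584) or normal 3 (adjusted p = 0.071). The mitochondrial ferredoxin Fdx1 fell by 0.67 (adjusted p = 0.0367), a call lost without any 1 of 8 libraries, at most adjusted p = 0.107 without normal 3. The reductase Cyb5r1 rose, at 26 to 49.6 CPM in tumors and 14.1, 18.2 and 17 CPM in normals (log2 fold change 1.09, SE 0.19, adjusted p = 0.0032), and its call held. Of 18 alcohol and aldehyde partners 6 fell (median -1.10). They included the ketosteroid reductases Akr1c12 (-0.93, adjusted p = 0.00754) and Akr1c14 (-1.43, adjusted p = 0.0191) and the alcohol dehydrogenase Adh1 (-2.09, adjusted p = 0.021) on the log2 scale. Akr1c14 lost its call without normal 3 (adjusted p = 0.131) and Adh1 without normal 1 (adjusted p = 0.0565) or normal 3 (adjusted p = 0.108). Aox4 passed (adjusted p = 0.00394) on normal 2, with 0.294, 75.4 and 0.306 CPM in normals, and its log2 fold change without that library was 0.02 (adjusted p = 0.997).

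Of 8 sulfotransferases and sulfate donor enzymes 2 fell and 1 rose (median -1.81). Sult1a1, the phenol sulfotransferase, had 1.92 at the lowest, 3.41 at the median and 5.43 at the highest CPM in tumors and 45.3, 8.55 and 32 CPM in normals (log2 fold change -2.94, SE 0.35, adjusted p = 0.000722), without overlap, and its call held without each library. Sult2b1, which sulfates cholesterol, fell by 2.47 on the log2 scale (adjusted p = 0.0115), a call lost without normal 2 (adjusted p = 0.17). Sult4a1 rose by 1.84 (adjusted p = 0.0331) and did not pass without any 1 of 4 libraries, at most adjusted p = 0.113 without normal 3. Of 13 hydrolases and esterases 4 fell (median -1.70). The microsomal epoxide hydrolase Ephx1 had 5.5 to 43.3 CPM in tumors and 56.5, 66.2 and 49.6 CPM in normals (log2 fold change -1.7, SE 0.39, adjusted p = 0.00882), and its call held. Ephx2 (-2.45, adjusted p = 0.0352), Ces1d (-2.83, adjusted p = 0.0447) and Ces1e (-2.48, adjusted p = 0.0462) fell on the log2 scale but lost the call without any 1 of 9, 10 and 11 libraries, at most adjusted p = 0.0984 without normal 1, 0.203 without normal 2 and 0.117 without normal 1. Of 7 other methyl and acetyl transferases 2 fell (median -1.15). They were Hnmt, which methylates histamine (0.246 to 3.97 CPM in tumors and 10.4, 3.49 and 5.81 CPM in normals, log2 fold change -2.62, SE 0.45, adjusted p = 0.00312), and Tpmt, which methylates thiopurines (log2 fold change -1.34, adjusted p = 0.00481), and both calls held without each library.

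Of 14 retinoid handling partners 2 fell and 1 rose (median -0.81). The retinol transporter Stra6 rose, at 1.62 at the lowest, 12.1 at the median and 53.8 at the highest CPM in tumors and 3.09, 0.96 and 0.229 CPM in normals (log2 fold change 3.62, SE 1.11, adjusted p = 0.0282), a call lost without normal 2 (adjusted p = 0.103) or normal 3 (adjusted p = 0.1). Bco1, which cleaves beta-carotene, fell by 1.56 on the log2 scale (adjusted p = 0.0244), a call lost without normal 1 (adjusted p = 0.0514), normal 2 (adjusted p = 0.078) or normal 3 (adjusted p = 0.095). Crabp2 fell in the test (adjusted p = 0.024) on normal 2, with 0.147, 21.6 and 0.229 CPM in normals, and its log2 fold change without that library was 2.07 (adjusted p = 0.105). Of 14 transporters 3 fell and 1 rose (median -0.36). The drug efflux pump Abcb1b rose, at 3.64 to 25.1 CPM in tumors and 3.16, 2.88 and 4.28 CPM in normals (log2 fold change 1.99, SE 0.42, adjusted p = 0.00639), and held without each library. Slco2b1 (log2 fold change -1.51, adjusted p = 0.00808), Slco2a1 and Abcc5 fell. Slco2b1 lost its call without normal 3 (adjusted p = 0.0735). Slco2a1 and Abcc5 lost the call without any 1 of 10 libraries each, at most adjusted p = 0.284 and 0.377, both without normal 3. Of 12 other glutathione enzymes 1 fell and 1 rose (median -0.85): Gpx3 fell by 1.17 on the log2 scale (adjusted p = 0.0296), lost without normal 1 (adjusted p = 0.0534) or normal 3 (adjusted p = 0.3), and Gstcd rose by 1.64 (adjusted p = 0.00309), held without each library.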

How the data were processed

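Bulk RNA was sequenced in 15 libraries, 5 groups of 3. The authors deposited whole-number counts per gene for each library, and a table named for FPKM whose columns each sum to 1e+06 over genes, so its deposited values were read as TPM. bcl2fastq 2.19, kallisto 0.44.0, sleuth, DESeq2 and GRCm38.p6 are named in the submitters' processing notes, with no role given; the annotation they used is not stated there. Counts split by kallisto among near-identical genes are estimates, which bears on the clustered members.

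Counts were scaled by TMM and genes filtered by filterByExpr at a minimum of 10 (16224 kept). Groups were fitted together, with no other term, by the robust quasi-likelihood test of edgeR 4.0.16 in R 4.3.3, with Benjamini-Hochberg adjustment. Tumors were compared with normals as the mean of the 4 site groups, then by site, then among sites. Same-numbered libraries deviated together (every r over 0.1) between antrum and normal (0.462, 0.262 and 0.179) and between lesser curvature and normal (0.367, 0.298 and 0.143), so the numbers were read as pairs in these comparisons from the data alone, since no label says what a number marks; for greater curvature (lowest r 0.088) and corpus (lowest r -0.257) they were not. The edgeR fit was run on simulated counts with known changes, a common spread and no outlying libraries. That run does not show how the fit behaves with libraries as uneven as these. Alternatives were DESeq2's size factors, DESeq2 1.42.0, no filter, the replicate number as a block, limma 3.58.1 on log2(TPM + 1) for genes at 1 TPM in 3 libraries, leaving out libraries, and fits of only the 6 libraries compared. The members, gene lists and tests were chosen with earlier results of these data known. Named members were up to 6 called ones per family and direction by size of change (at 1 CPM or more in the higher group), the 3 with the highest TPM per family, fixed retinoid enzymes, Aldh2 and Inmt, up to 3 more per site, and 4 genes by p from each pathway list; others, among them those given in counts of held or non-overlapping calls, were picked after their values were seen. Shared sequence was counted as 31-base stretches of GENCODE M21 transcripts. Promoters came from RefSeq GRCm38.p6. Count intervals cover counting error only.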

Additional observations from a re-analysis of the deposited data

How the results depend on the processing

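All tumors against normals gave 27 lower and 3 higher members; other settings gave 12 and 6 (limma on TPM), 35 and 4 (DESeq2), 22 and 2 (no filter) and 31 and 3 (with the replicate number as a block), and leaving out 1 library gave 10 to 38 and 0 to 4. Over all groups 17 of 30 same-numbered pairs correlated above 0.1, with r from -0.566 to 0.693, and 10 of 15 libraries matched their own number best, so the numbers did not pair all groups. The block ended 6 calls of named genes in all tumors against normals, Cyp2f2 (adjusted p = 0.306), Cyp2j9 (0.0563), Cyp4f17 (0.056), Tiparp (0.0657), Hmox1 (0.0876) and Crabp2 (0.203), and brought 8 under the threshold. In antrum tumors (6 lower, 0 higher) DESeq2 gave 16 and 2, limma 2 higher, the block 6 and 1, the fit without greater curvature 2 and corpus 1 gave 1 higher, and the 6-library fit 3 lower; single libraries gave 1 to 8 and 0 to 1. In greater curvature tumors (3 and 1) DESeq2 gave 14 and 4, limma 5 and 5, no filter 0 higher, the block 2 higher, the fit without greater curvature 2 and corpus 1 gave 11 and 2, and the 6-library fit 0 and 0; single libraries gave 0 to 10 and 0 to 3. In lesser curvature tumors (23 and 1) DESeq2 gave 47 and 3, the block 36 and 2, limma 6 higher and the 6-library fit 2 higher; single libraries gave 10 to 37 and 1 to 2. In corpus tumors (3 and 0) DESeq2 gave 9 lower, no filter 1, limma 1, and the 6-library fit 1 higher; single libraries gave 0 to 3 lower. The share of all genes called under these other settings is not given, so the moves are not shown to be particular to the members. The cause of these moves was not tested. Of 1762 alternatives for 84 named genes 10 changed sign, 5 without normal 2 and 5 with limma on TPM. Leaving out 1 library gave log2 fold changes of -4.54 to 4.07 for Cyp2f2, -1.08 to 0.31 for Cyp26b1, -1.52 to 0.19 for Hmox1, -6.92 to 0.02 for Aox4 and -3.73 to 2.07 for Crabp2, each highest without normal 2. With limma on TPM it was 0.10 for Cyp26b1, 0.11 for Cyp1b1, 0.02 for Tiparp, 0.15 for Arnt and 0.11 for Papss1, on a scale that moves the median gene by 0.43; relative to that median they were -0.33, -0.33, -0.41, -0.28 and -0.32, the same direction as with edgeR. Of 59 called genes 41 lost the call without at least 1 library. Depth limits the members with few counts, such as Cyp21a1 and Cyp26a1.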

Other observations

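Among the 77 symbols below the count minimum, picked after their values were seen, Cyp4x1 had 90 counts over the 15 libraries, the estrogen synthase Cyp19a1 73, Aldh8a1 66 and the ethanol-inducible Cyp2e1 48.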
